A study of Xenopus laevis with 2 samples.

Results

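The genes described here code for the Arp2/3 complex, and their mRNAs were followed in axons of *Xenopus laevis* retinal ganglion cells (RGCs), the neurons that connect the eye to the brain. Gene names were chosen by symbol alone, taking arpc1a, arpc1b, arpc2, arpc3, arpc4, arpc5, arpc5l, actr2 and actr3. These 9 symbols stood for 16 of the 49348 gene names listed in each library. The endings L and S mark the homeologs, the copies of a gene on the long and short subgenomes of this allotetraploid frog, and they were kept apart.

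The Arp2/3 complex binds the side of an existing actin filament and starts a new filament there as a branch, which builds the dense actin networks of lamellipodia and of the advancing growth cone. Arp2 (actr2) and Arp3 (actr3) are actin-related proteins that together form the start of the branch, and the ARPC subunits hold them and bind the mother filament. The complex has little activity alone and is switched on by nucleation promoting factors of the WASP and WAVE families. In vertebrates, arpc1a and arpc1b are alternative versions of one subunit, and arpc5 and arpc5l are alternative versions of another.

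The data comprised 2 RNA-seq libraries of 1 condition, RGC axons. Eyes of *Xenopus laevis* embryos at stages between 33/34 and 37/38 were cultured for 48 hours on the filter of a Boyden chamber, a device whose 1 µm pores let axons but not cell bodies through. Total RNA of the axons was converted to cDNA and amplified by PCR with a method made for single cells. Many eyes were pooled for each library, so a library is a pool of embryos and not 1 animal, and no genotype, transgene or drug treatment is given in the labels for either library. No cell body, whole eye or embryo library was analysed here, so the values describe levels in axons and no test between groups was possible. Fewer axons and less RNA per axon cannot be told apart in such a pool.

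Levels are given in FPKM, fragments per kilobase of transcript and per unit of mapped fragments, which divides by transcript length. Comparisons between genes within a library rest on that division. Whether the amplified cDNA covered short and long transcripts evenly was not measured, so the order of genes by level may partly reflect their length. Differences between genes in how well their cDNA was amplified are not corrected and were not measured. All gene names summed to 619946 FPKM in replicate 1 and to 725521 FPKM in replicate 2, and 3147 and 2872 gene names had a value above 0. FPKM values hold no counts, so the depth is unknown and no counting interval could be given. A value of 0 can be a failed estimate, an mRNA that was present but not sampled, or an mRNA that is absent. Which of these holds was not examined. A gene at 0 is therefore only described as listed at 0. The genes tcp1, cct2 and cct8, which code for subunits of the chaperonin CCT, were also listed at 0 in both libraries. Of the 8 symbols of that complex, 3 (cct6a, cct4 and cct5) had a name over 1 FPKM in both libraries. Of the 20 markers used for RGCs and axons, 19 were listed, 3 were over 1 FPKM in both libraries and 15 were at 0. Those over the limit were stmn2, a growth cone protein that acts on microtubules (stmn2.S at 262 and 719 FPKM and stmn2.L at 280.5 and 120 FPKM), rbpms2, an RNA-binding protein of RGCs (rbpms2.L at 98.5 and 48.9 FPKM), and gap43, a growth cone protein (gap43.L at 2.85 and 3.11 FPKM). Neurofilament genes and the RGC transcription factors of the pou4f and isl families were not among the markers over the limit.

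arpc5 and arpc4 made up nearly the whole signal of the complex. Their S homeologs, arpc5.S and arpc4.S, were among the most abundant mRNAs of both libraries, actr2.L followed at a level at least 4.60-fold below arpc4.S in each library, and 10 of the 16 gene names were listed at 0 in both libraries. Of the 16 names, 4 (25%) were over 1 FPKM in both libraries, against 4.39% of all gene names. The same 4 names were over 100 FPKM in both libraries, against 0.942% of all gene names, and 2 were over 1000 FPKM, against 0.221%. A value above 0 in at least 1 library was found for 6 names, against 6.76% of all. The median over the 16 names was 0 FPKM, as it was over all 49348. The 16 names are 0.0324% of those listed, and their share of the summed FPKM was 1.99% in replicate 1 and 2.01% in replicate 2.

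**Figure D1:**
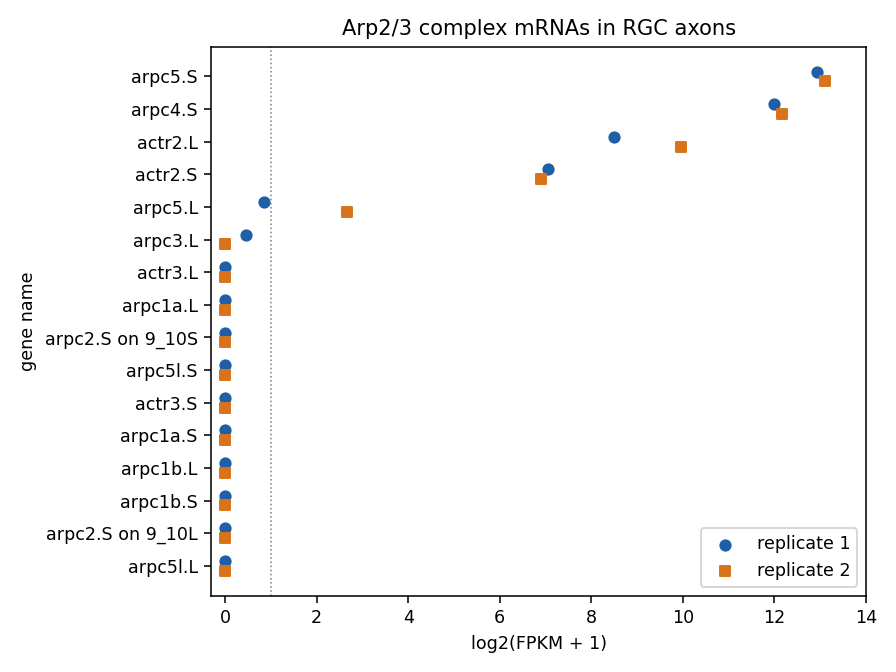
Level, log2(FPKM + 1) on the x axis, of the 16 Arp2/3 gene names (y axis) in replicate 1 (circles) and replicate 2 (squares), with a dotted line at 1 FPKM. arpc5.S, arpc4.S, actr2.L and actr2.S lie far to the right of the line in both libraries, arpc5.L lies on both sides of it, and 10 names lie at 0 in both.

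The most abundant member was arpc5.S, a homeolog of the small ARPC5 subunit, which is known to tie Arp2 to the rest of the complex. Its level in replicates 1 and 2 was 7803 and 8848 FPKM, with a mean of 8325 ± 739 FPKM (SD, n = 2). This placed it at rank 11 and rank 10 of all gene names, with shares of 1.26% and 1.22% of all FPKM. By mean log2(FPKM + 1) its place was 9. The names next above it were ube2d3.L, a ubiquitin-conjugating enzyme (10032 and 8067 FPKM), and rpl21.L, a protein of the large ribosomal subunit (7489 and 11665 FPKM). Those next below were rps10.L, a protein of the small ribosomal subunit (6650 and 9194 FPKM), and ptma.S, prothymosin alpha (7061 and 8169 FPKM). The values of all 4 neighbours overlapped with those of arpc5.S, so the order among them was not separated by the spread between the libraries. The row of arpc5.S, which also carries the name MGC83272, lies on chromosome 4S from 73305513 to 73312268 in X. laevis v9.2.

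The second was arpc4.S, which codes for a subunit of the central core that contacts the mother filament. It was listed at 4054 and 4587 FPKM in the libraries, with a mean of 4320 ± 377 FPKM (SD, n = 2), at ranks 25 and 30. arpc5.S was 1.92-fold higher than arpc4.S in replicate 1 and 1.93-fold higher in replicate 2. arpc5.S and arpc4.S together accounted for 96.0% and 92.3% of what all members summed to. arpc4.S lies on chromosome 4S from 111577796 to 111596430 (v9.2). The nearest listed locus, 720 bp away, is shared by separate rows named tada3.S and camk1, and both were at 0. No name arpc4.L was listed, so a split between homeologs could not be given for this subunit.

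Of the actin-related subunits, actr2 had values under both homeologs and actr3 was listed at 0 under both. actr2.L stood at 360.2 and 996 FPKM, a mean of 678 ± 450 FPKM (SD, n = 2). actr2.S stood at 131 and 119 FPKM, a mean of 125 ± 8.34 FPKM (SD, n = 2). The homeologs did not overlap, since the lower value of actr2.L was above both values of actr2.S. Their ranks were 259 and 139 for actr2.L and 486 and 580 for actr2.S. arpc4.S was 11.3-fold higher than actr2.L in replicate 1 and 4.60-fold higher in replicate 2. actr2.L lies on chromosome 5L from 29910601 to 29944277 and actr2.S on 5S from 1956285 to 1984775 (v9.2). Both lie between the homeologs of rab1a, a small GTPase of vesicle transport, and spred2, an inhibitor of Ras signalling. Of these, rab1a.L was listed at 23.9 and 65.8 FPKM, rab1a.S at 0 and 0.527 FPKM, and both spred2 homeologs at 0.

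A further pair of names had values below the limit in at least 1 library. arpc5.L was at 0.805 and 5.38 FPKM, and was over 1 FPKM in 1 of the 2 libraries. arpc3.L, a small subunit next to Arp3, was at 0.368 FPKM in replicate 1 and was listed at 0 in replicate 2. The row of arpc3.L (chromosome 1L, 163461117 to 163482022, v9.2) has the same locus as gpn3.L and LOC108716869, both at 0. No name arpc3.S was listed. The 6 members with a value fell in the same order in both libraries, arpc5.S, arpc4.S, actr2.L, actr2.S, arpc5.L and arpc3.L. No neighbours in that order had overlapping values.

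**Figure D2:**
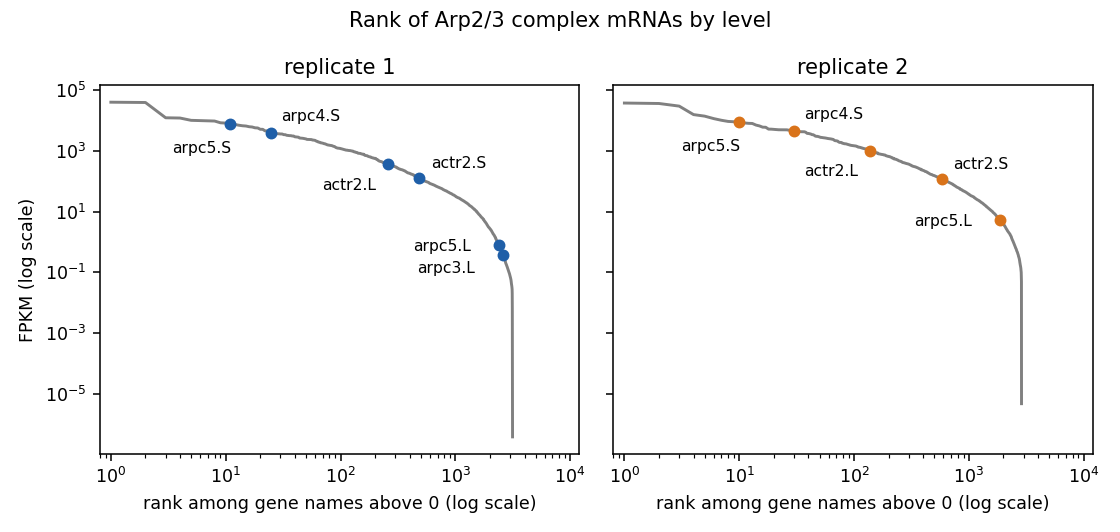
FPKM (y axis, log scale) of all gene names above 0 against their rank (x axis, log scale), as a line, in replicate 1 on the left and replicate 2 on the right, with the members as points. arpc5.S sits at rank 11 and 10 and arpc4.S at rank 25 and 30, while arpc5.L and, in replicate 1, arpc3.L sit where the line bends down. In replicate 2, arpc3.L was at 0 and is not drawn.

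The names listed at 0 in both libraries covered 5 whole symbols. They were actr3.L and actr3.S (Arp3), arpc1a.L, arpc1a.S, arpc1b.L and arpc1b.S (the subunit that contacts nucleation promoting factors), 2 rows of arpc2 (the core subunit that pairs with ARPC4), and arpc5l.L and arpc5l.S (the paralog of arpc5). Both arpc2 rows carry the name arpc2.S, with MGC78865 beside it on the row on chromosome 9_10S. The other lies on chromosome 9_10L, where the v10.1 gene table has arpc2.L. Of the 10 names, 8 lie on chromosomes 9_10L and 9_10S. The arpc1b and arpc1a genes there lie 4552 bp apart on 9_10L and 5059 bp apart on 9_10S. Those chromosomes as a whole did not lack values. Over 1 FPKM in both libraries were 5.07% of the names on 9_10L and 4.77% of those on 9_10S, within the range of 4.05% to 5.99% over the 18 chromosomes. The loci of the members at 0 spanned 16622 to 54535 bp and those of the members over the limit 6756 to 33677 bp. These are spans on the genome and not transcript lengths. Whether span or chromosome bears on the listed values was not tested. Among the members, 4 share a locus with another gene name in the files, and each of those other names was at 0.

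The difference between the libraries was wider for actr2.L than for the other abundant members. On the log2 scale of (FPKM + 1), replicate 2 stood above replicate 1 by 0.18 for arpc5.S, by 0.18 for arpc4.S and by 1.47 for actr2.L, while actr2.S had a ratio of -0.14. On the FPKM scale, actr2.L was 2.77-fold higher in replicate 2 and actr2.S was 0.910 times its level in replicate 1. Over the 2167 gene names over 1 FPKM in both libraries, the median log2 ratio was -0.13, with quartiles at -0.95 and 1.06. For names with a mean over 1000 FPKM (130 names), the median absolute ratio was 0.40, and both arpc5.S and arpc4.S lay below it. For names between 100 and 1000 FPKM (478 names), the quartiles were -0.64 and 1.12, so actr2.L lay above the upper quartile and actr2.S between the quartiles. The median over the 4 members was 0.18, and 3 of the 4 were higher in replicate 2. That direction depended on the scale. With each library rescaled to the same sum (the TPM scale), the median was -0.046.

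**Figure D3:**
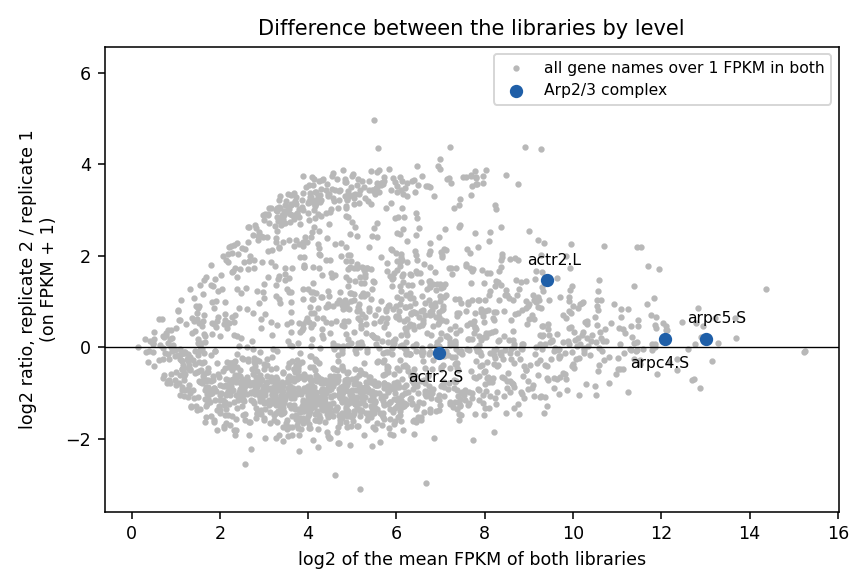
Log2 ratio of replicate 2 to replicate 1 on FPKM + 1 (y axis) against log2 of the mean FPKM (x axis) for the 2167 gene names over 1 FPKM in both libraries (grey) and the Arp2/3 members among them (blue). arpc5.S and arpc4.S lie at 0.18 and actr2.S at -0.14, near the line of no difference, and actr2.L lies at 1.47.

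The homeologs of arpc5 and actr2 were split in different ways. For arpc5, S made up 99.99% of the summed level of both homeologs in replicate 1 and 99.9% in replicate 2, and log2 of (L + 1)/(S + 1) was -12.08 and -10.44. For actr2, L made up 73.3% and 89.3%, and the same log2 value was 1.45 and 3.05. Of the 6 member symbols with an L and an S name, these were the 2 with a homeolog over 10 FPKM in a library. Among the 789 such pairs in the files, 412 (52.2%) were more than 10-fold apart in the same direction in both libraries, with S the higher in 173, and 215 (27.2%) had both homeologs over 1 FPKM in both libraries. Much of this background rests on names listed at 0, since 440 of the 789 pairs, and 283 of the 412, had a homeolog at 0 in both libraries. Of the 349 pairs with both homeologs above 0 in at least 1 library, as arpc5 and actr2 are, 129 were more than 10-fold apart in the same direction. arpc5 belongs to the pairs more than 10-fold apart and actr2 to those with both homeologs over 1 FPKM. Ordered by the smaller of its log2 differences in the libraries, arpc5 was at place 8 and actr2 at place 627 of the 789. With a pseudocount of 1, such differences grow with the level of the higher homeolog where the other is at or near 0. The place of arpc5 therefore partly restates the level of arpc5.S. The median absolute log2 value over the pairs was 4.23 in replicate 1 and 4.25 in replicate 2. Homeologs can share reads, and how reads that match both were divided is not given in the sources used here, and the share of each homeolog is therefore uncertain.

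**Figure D4:**
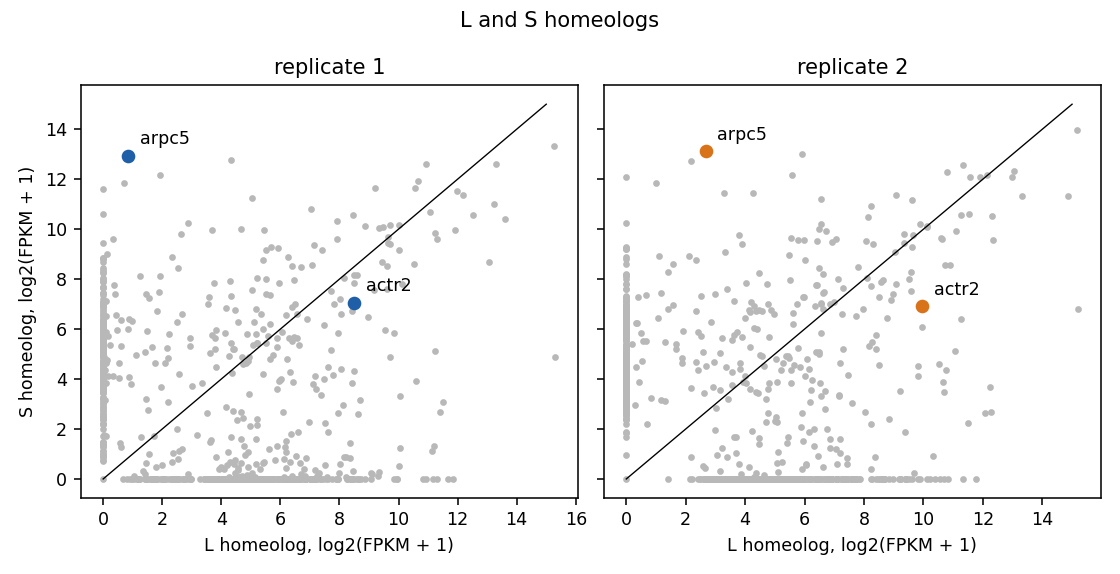
Level of the S homeolog against that of the L homeolog, both as log2(FPKM + 1), in replicate 1 (left) and replicate 2 (right) for the 789 pairs with a homeolog over 10 FPKM in a library (grey), with arpc5 and actr2 in colour and a line where both homeologs are equal. arpc5 lies at the upper left, far on the S side of the line, and actr2 on the L side in both libraries.

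Summed over homeologs, the subunits of the complex spanned the range from 0 to 8853 FPKM. arpc5 came to 7803 and 8853 FPKM, 63.2% and 60.8% of the complex. arpc4 came to 4054 and 4587 FPKM, 32.8% and 31.5%, and actr2 to 491 and 1116 FPKM, 3.98% and 7.66%. Across the 9 subunit symbols, the SD of log2(FPKM + 1) was 5.70 in replicate 1 and 5.95 in replicate 2, 5.83 on average. For the chaperonin CCT, another complex of many subunits, the SD over 8 symbols averaged 2.09, and for the WAVE regulatory complex it averaged 2.52 over 11 symbols. In those complexes 4 of 14 and 2 of 20 gene names were over 1 FPKM in both libraries, and the most abundant symbol was cct6a (58.2 and 18.5 FPKM) and brk1 (66.0 and 791 FPKM). The SD was not tested between complexes, and it grows with the highest level in a complex when other subunits are at 0. In the Arp2/3 list, arpc1a and arpc1b were counted apart, as were arpc5 and arpc5l, although they are alternative versions of a subunit. The WAVE list likewise counted related genes apart, namely cyfip1 and cyfip2, nckap1 and nckap1l, abi1 to abi3, and wasf1 to wasf3. The SDs of the complexes are therefore not taken over like units.

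Genes that act on the complex or on actin, and other actin-related proteins, were read as lists. By the mean of the libraries, no gene of these lists reached the level of arpc5.S or arpc4.S. Over all 8 lists, 25 of 107 gene names (23.4%) were over 1 FPKM in both libraries, against 4.39% of all names, and the median of every list was 0. Of the nucleation promoting factors, 2 of 18 names were over the limit, and both are cortactin, which also stabilises branches. cttn.L was at 24.4 and 126 FPKM, and the row named cttn without an ending at 18.4 and 38.6 FPKM. The genes of WASP, N-WASP and the WAVE proteins (was, wasl, wasf1, wasf2 and wasf3) were not over it.

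Of the WAVE regulatory complex, which holds WAVE inactive until Rac binds, 2 of 20 names passed the limit. The small subunit brk1.L was at 66.0 and 791 FPKM and abi1.L at 17.2 and 7.41 FPKM. Of the WASH complex, which drives actin branching on endosomes, 1 of 5 names passed, kiaa1033.L (washc4) at 43.3 and 28.1 FPKM. None of the 3 names of WASP-interacting proteins had a value above 0.

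Of the inhibitors and debranching factors, 3 of 13 names passed the limit. coro1c.L, a coronin that binds filaments and the complex, was at 195 and 190.4 FPKM, close between the libraries. arpin.L, an inhibitor that competes with WAVE for the complex, was at 70.7 and 184 FPKM, and coro1c.S at 21.1 and 7.23 FPKM. Of the upstream GTPases and adaptors, 4 of 20 names passed. The GTPase cdc42.S, which activates N-WASP, was at 76.1 and 231 FPKM, the adaptor grb2.L at 43.4 and 135 FPKM and the GTPase rhoa.S at 47.8 and 110 FPKM. These 3 names were all higher in replicate 2, and none was as high as the lower value of actr2.L. No name of the Rac genes of this list (rac1, rac2 and rac3) had a value above 0.

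Of actin and its turnover, 12 of 27 names (44.4%) passed, the highest share of the 8 lists. cfl1.L, the filament-severing cofilin, was at 1064 and 4848 FPKM, above actr2.L in both libraries, and overlapped with arpc4.S in that its value in replicate 2 was above both values of arpc4.S. tmsb4x, which binds actin monomers and has L and S on a single row, was at 642 and 625 FPKM, and twf2.L, a monomer-binding twinfilin, at 466 and 454 FPKM. The actin genes themselves were lower. actb.S was at 79.8 and 112 FPKM, actg1.S at 49.8 and 108 FPKM, actg1.L at 87.3 and 28.5 FPKM and actb.L at 2.59 and 14.4 FPKM, so actg1.L was the lower in replicate 2 and the others the higher. Of the other actin-related proteins, 1 of 8 names passed, actr1a.L of dynactin, at 11.4 and 6.56 FPKM. The paralog actr3b was not listed under that symbol.

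**Figure D5:**
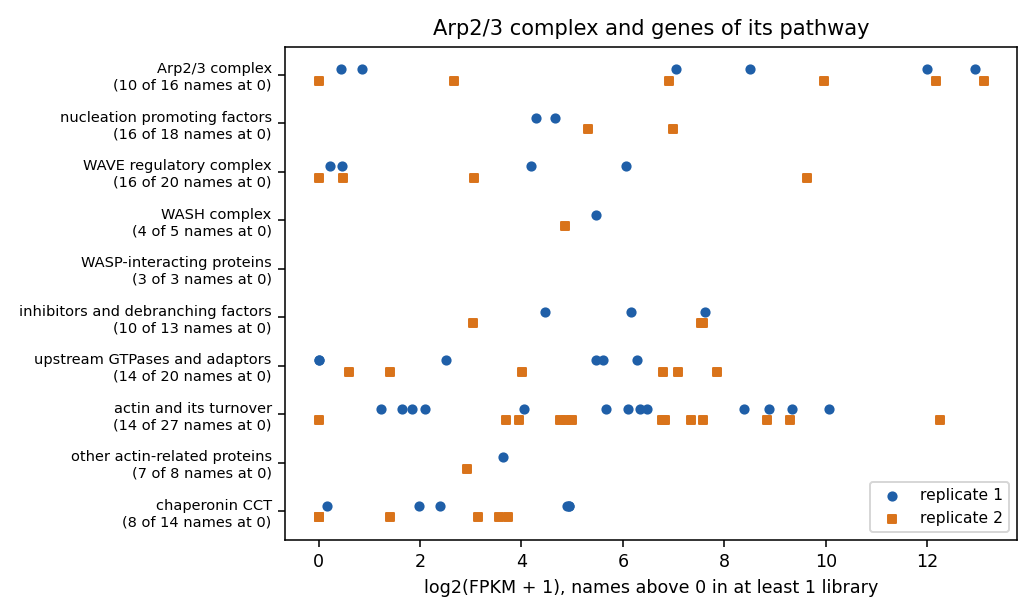
Level, log2(FPKM + 1) on the x axis, of each gene name above 0 in at least 1 library, in replicate 1 (circles) and replicate 2 (squares), for the Arp2/3 complex, the lists of genes that act on it or on actin, other actin-related proteins, and the chaperonin CCT (y axis, with the number of names at 0 in both libraries). The highest points of the Arp2/3 complex lie to the right of those of every other list, and 13 of 27 names of actin and its turnover and 6 of 14 of the chaperonin CCT have a value.

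Most cell types express Arp2/3 genes, so markers of other sources were read in the same libraries. Of 48 markers for 11 other sources, 45 were listed, 34 of them at 0, and 6 were over 1 FPKM in both libraries. Those were pcna.L of dividing cells (150.0 and 74.3 FPKM), dct of pigment cells (86.8 and 63.9 FPKM), glul (8.58 and 58.4 FPKM) and rlbp1.L (11.3 and 4.94 FPKM) of Müller glia, and the collagens col1a1.S (27.5 and 27.9 FPKM), col1a1.L (3.61 and 2.66 FPKM) and col3a1.L (1.68 and 1.86 FPKM). The 45 listed markers of other sources summed to 294 and 249 FPKM in the libraries. The RGC and axon markers summed to 644 and 890.4 FPKM, and the Arp2/3 genes to 12348 and 14556 FPKM. Most of the RGC and axon sum came from stmn2, with stmn2.L at 280.5 and 120 FPKM and stmn2.S at 262 and 719 FPKM. Sums over sets of unlike genes do not measure the share of a cell type. All 4 listed leukocyte markers were at 0, as were 15 of the 19 listed RGC and axon markers, and a listed 0 does not show absence. The part of other cells in the levels of the Arp2/3 genes was not tested.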

How the data were processed

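RNA-seq of 2 replicate libraries of *Xenopus laevis* RGC axons was analysed. The deposited values are FPKM, 1 per row for each library, with replicates not pooled. Per the submitters' processing notes the authors used bcl2fastq, HISAT2 2.1.0 and Cufflinks 2.1.1, and the methods give X. laevis v9.2 as the genome build. The methods give default settings for HISAT2. The gene annotation, and the Cufflinks options for strand and for reads matching several genes, are not given in the sources used here. Signal from overlapping or antisense genes can therefore not be told apart. PCR amplification of the cDNA adds an error that FPKM does not show.

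The 51036 rows with a gene name were summed by name (415 names stood on more than 1 row). The 1 row without a name, 0.129% and 0.000192% of the summed FPKM, was left out. Members were matched by symbol. The limit was 1 FPKM in both libraries, as in the study's GO analysis, and a pseudocount of 1 was added before log2. The v10.1 table of gene names served for names. It also assigned rows that carry only a LOC identifier, such as that of actb.S, to the symbols of the lists. Members and lists were chosen with earlier results of these data known. The text names every member, the 3 highest genes of each list over the limit, 2 neighbours in level on each side of the highest member, and markers over the limit. The actin genes of the turnover list over the limit were named in addition, after their values were seen, and so were tcp1, cct2, cct8 and the genes flanking members. Replicates came from different batches of embryos per the methods of the study. No relative depth is given, since the steps of low values did not give back a known depth reliably on data made for the purpose (15 of 20 runs within 5% at a relative depth of 2, and 1 of 20 at 4). Python 3.11.15, numpy 2.4.6, pandas 2.3.3 and matplotlib 3.10.9 were used. The alternatives were the detection limit, the pseudocount, the scale, repeated rows, averaged homeologs, members above 0 only and leaving out each replicate. The embryo control, the proteomics and the mouse data were not analysed here.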

Additional observations from a re-analysis of the deposited data

How the results depend on the processing

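Of 38 alternatives other than leaving out a replicate, 30 left the value within the spread between the libraries or, for counts, within 1.5 times. Some of these could not change anything. Every member name stands on a single row, so taking the highest row of a name leaves each member result as it was and says nothing about stability. A further 24 left out a replicate. For a level, split or SD these give the value of 1 library, which cannot lie outside that spread, and so they say nothing about stability. Without replicate 1 or 2, actr2.L was at 996 or 360.2 FPKM (mean 678), arpc5.L at 5.38 or 0.805 FPKM (mean 3.09) and arpc3.L at 0 or 0.368 FPKM (mean 0.184). The median log2 ratio of replicate 2 to replicate 1 over the members, 0.18, changed sign to -0.046 on the TPM scale. There both libraries are scaled up, the one of higher summed FPKM by less. The median over the members was 402 FPKM with members above 0 only, against 0 with all. With a pseudocount of 10 the arpc5 split was -9.33 in place of -11.26. The SD over subunits, 5.83 on average, was 7.41 with a pseudocount of 0.1 and 4.21 with 10, by construction, as it sets the distance of genes at 0 from the rest. On the TPM scale the levels of arpc5.S, arpc4.S and actr2.S came to 12391, 6430 and 188. The count of members over the limit was 4 to 5 under every limit tried and without either replicate, where arpc5.L is the one that enters. Without 1 replicate, the arpc5 split ranged from -12.08 to -10.44, the actr2 split from 1.45 to 3.05, the SD over subunits from 5.70 to 5.95, and the pathway count was 26 in both cases (25 in the report, and 18 with a limit of 10 FPKM).

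The limits are few libraries and unknown depth. An SD from 2 values is itself imprecise, a listed 0 does not show that an mRNA is absent, and enrichment over cell bodies was not measured in these libraries. No paired analysis was possible because both libraries belong to 1 group.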
